A study of Caenorhabditis elegans with 12 samples.

Results

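The comparison of vha-6 RNAi with control RNAi took 6 of the series' 12 RNA-seq libraries, 3 for each treatment, and all 18467 genes of the deposited count table. Its members were chosen by their labels alone, as every gene row in the 3 libraries of N2 worms fed vha-6 RNAi bacteria and the 3 of N2 worms fed control RNAi bacteria. N2 is the wild-type laboratory strain of the nematode Caenorhabditis elegans, and both groups are labelled wild type with no other allele. In feeding RNAi, worms eat bacteria that make double-stranded RNA of the target gene, which lowers that gene's transcript. Per the labels, both were kept at 20 °C from the L1 larva on, collected 2.5 days later as L4 larvae or young adults, and taken whole for polyA-selected RNA. The vha-6 food was 25% vha-6 RNAi bacteria mixed into 75% control RNAi bacteria, so the knockdown was a diluted dose. The labels do not say how many worms made a library or whether the 3 libraries of a treatment were separate cultures, so p-values measure the spread between these libraries, which may be technical. The remaining 6 libraries, of vha-16 RNAi and vha-19 RNAi worms raised in the same way on the same 25% mixture, shared in the estimate of the spread and are compared with vha-6 RNAi where stated.

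The vacuolar H+-ATPase (V-ATPase) is a rotary pump that spends ATP in its cytosolic V1 sector to drive protons through its membrane-bound V0 sector. It acidifies lysosomes and endosomes, which lets acid hydrolases work, and in the worm gut it also sits on the apical membrane that faces the lumen. The a subunit of V0 has several paralogues that place the pump in different membranes, and VHA-6 is the paralogue of the intestine. The gut of the worm is at once its digestive organ, its main store of fat and the maker of yolk, and many lysosomal genes are read most strongly there under the GATA transcription factor ELT-2. The series is titled after a response that surveys lysosomes, and the comparison asks which transcripts change when the gut pump is depleted.

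Gene counts ranged from 21981854 to 22025927 per library in control and from 22370521 to 22378536 under vha-6 RNAi. Levels are given in CPM, the counts of a gene per 1e+06 counts of its library after scaling with TMM (trimmed mean of M-values), and changes as log2 fold changes of vha-6 RNAi over control. A number in parentheses after a gene is its log2 fold change over control, and one given against vha-16 RNAi or vha-19 RNAi is the log2 difference of vha-6 RNAi from that knockdown. A gene is said to rise or fall where edgeR's quasi-likelihood test over the 17043 genes tested gave a Benjamini-Hochberg adjusted p under 0.05. By that rule 47.9% of genes tested rose and 41.4% fell, and 32.0% rose and 22.7% fell by 2-fold or more, so a call by itself sets no gene apart. The libraries of the groups did not overlap for 89.6% of genes. The median over all genes was a log2 fold change of 0.24, with quartiles of -0.91 and 1.34. Scaling by library totals in place of TMM moved all changes up by a median of 0.45 and DESeq2's size factors moved them by -0.14. Changes smaller than that shift therefore depend on the scaling.

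The vha-6 transcript (chromosome II, 11435210 to 11438452 of WBcel235) fell by over 4-fold, and most of the other subunit genes rose. It stood at 405, 396 and 402 CPM in the 3 control libraries and at 89.2, 98.5 and 93.3 CPM in the 3 vha-6 RNAi libraries, a log2 fold change of -2.1 (SE 0.0358, adjusted p = 9.27e-33, edgeR). The groups lie far apart, and no vha-6 RNAi library came near a control library. This transcript was also low where it was not the target, averaging 127 CPM with vha-16 RNAi and 116 CPM with vha-19 RNAi. Most of the distance from control was thus shared by the 3 knockdowns. Compared directly, the transcript was lower under vha-6 RNAi than under vha-16 RNAi (-0.44) and vha-19 RNAi (-0.30). How much of the fall from control came from targeting the gene itself was not tested. The other a subunits did not move with vha-6 in a single direction. unc-32, the a subunit of neurons, went from 274 to 195 CPM (-0.49, and -0.04 with library totals), vha-7 from 200.3 to 85.4 CPM (-1.23), and vha-5, the a subunit of the skin and excretory canal, from 189 to 220.0 CPM (0.22). All 8 other V0 genes rose. vha-16, the d subunit, stood at 429, 442 and 453 CPM in control and 896, 854 and 862 CPM with vha-6 RNAi (0.98), with no overlap. The proton-carrying ring genes vha-1 (0.79), vha-2 (0.76), vha-3 (0.78) and vha-4 (0.37) rose, as did vha-17 (0.77) and the accessory subunits vha-19 (0.74) and vha-20 (0.89).

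In the V1 sector 8 of 9 genes rose. The catalytic A subunit gene vha-13 went from 862, 927 and 930.2 CPM to 1564, 1564 and 1599.9 CPM (0.80), and its partner, the B subunit gene vha-12, from 664, 664 and 682 to 1388, 1339 and 1379 CPM (1.03). The stalk genes vha-8 (0.89), vha-10 (0.88), vha-11 (0.62), vha-14 (0.63) and vha-9 (0.38) rose too. The H subunit is encoded by a pair of genes that moved apart, vha-15 rising (1.07) and vha-18 falling (-1.39). The median was 0.74 over the 12 V0 genes and 0.80 over the 9 V1 genes.

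**Figure D1:**
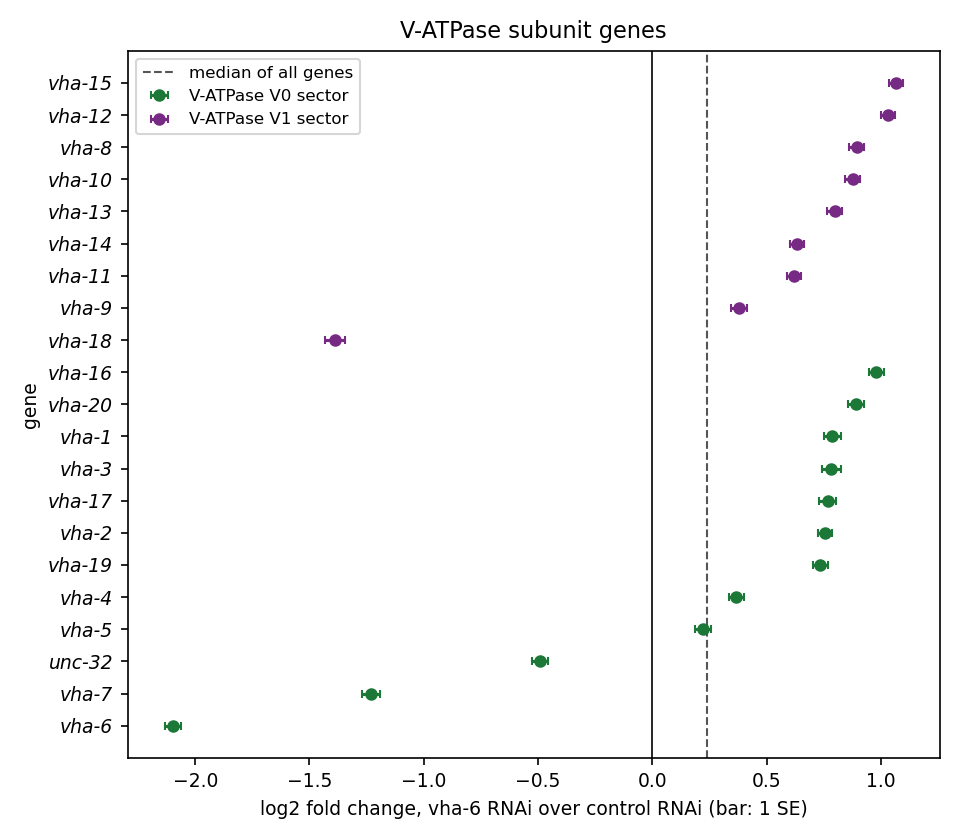
Log2 fold change of vha-6 RNAi over control for the 21 V-ATPase genes, V1 on top and V0 below. Points are edgeR estimates and bars are 1 SE over 3 libraries per group. The dashed line marks the median of all 17043 genes (0.24). vha-6 is the lowest point at -2.1, and 17 genes lie above 0.

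A rise of this size was not confined to V-ATPase genes in the comparison with control, because most pharyngeal, hypodermal, neuronal, coelomocyte and excretory markers rose with them. Of 14 pharyngeal markers 14 rose (median 1.4), of 12 hypodermal markers 9 rose and 3 fell (median 1.07), and of 27 neuronal markers 20 rose and 3 fell (median 0.83). Coelomocyte and excretory markers, with the V-ATPase gene vha-5 among the risers, rose in 8 of 10 and fell in 2 (median 0.82). Body-wall muscle markers went both ways, with 12 rises and 5 falls of 21 (median 0.19, below that of all genes). With DESeq2's size factors 10 of these rose and 9 fell, and with library totals 16 rose and 2 fell. The summed level of the neuronal list was 1042 to 1071 CPM in control and 1280.1 to 1303 CPM with vha-6 RNAi. That of the oocyte list was 23138 to 23898 CPM and 2935 to 2954 CPM. The part of these shifts in the V-ATPase values, and in every other change against control below, was not tested. In whole worms, fewer cells of a type and less RNA per cell cannot be told apart.

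Set directly against the other knockdowns, without the control means, V-ATPase transcripts stood higher under vha-6 RNAi. The control libraries still shared in the scaling and in the estimate of the spread. Of the 21 genes, 18 were higher than under vha-16 RNAi, where 31.2% of all genes were higher and 31.6% lower. The same number was higher than under vha-19 RNAi, where 29.0% were higher and 29.5% lower. The medians of the difference were 1.15 and 1.16 for V0 and 1.46 and 1.44 for V1. Those of the neuronal list were -0.12 and -0.01, and those of all genes 0.01 and 0.0028. vha-12 shows the pattern, at 1388, 1339 and 1379 CPM with vha-6 RNAi, 351, 361 and 351 CPM under vha-16 RNAi and 359, 363 and 357 CPM under vha-19 RNAi. The control libraries lay between them. The 3 genes that did not stand higher were vha-6 (-0.44 and -0.30), unc-32 (-0.17 and -0.16) and vha-18 (-0.34 and -0.53), which were lower. vha-16 and vha-19 are themselves the targets of those knockdowns, so their differences are partly set by the treatment.

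Aspartyl proteases, acid hydrolases of the cathepsin D kind that digest protein in the gut lumen and lysosome, made up the largest gain in CPM of any list examined. Of 17 asp genes 14 rose, at 2-fold or more for 13 of these, while 3 fell (median 2.23). Their summed level was 8349.7 to 8807 CPM in control and 40099.8 to 41865 CPM with vha-6 RNAi. The intestinal protease gene asp-1 (chromosome V, 19049562 to 19050752) stood at 2581, 2586 and 2803 CPM in control and 12755, 11932 and 12590.0 CPM with vha-6 RNAi (2.23, SE 0.0349), the largest gain of any gene in CPM, which is not corrected for transcript length. asp-6 went from 1719.7, 1701 and 1789.9 to 9758, 9490.0 and 9664 CPM (2.47) and asp-3 from 1088, 1093 and 1172 to 6989, 6603 and 6832 CPM (2.61). In each of these the lowest vha-6 RNAi library was several times the highest control library. asp-10, whose current name is hrg-7 and whose secreted product carries word of heme status from the gut, rose from 295 to 5277 CPM (4.16). Together with asp-10, asp-12 (5.4) and asp-8 (4.07) rose most among members with a mean of 5 CPM or more, asp-12 from 14.2 ± 1.7 to 601 ± 50.3 CPM (SD, n = 3).

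The 3 members that fell were asp-4, asp-13 and asp-14. asp-4, which encodes a cathepsin D-like lysosomal enzyme, went from 589, 589.8 and 603 to 249, 259 and 259.5 CPM (-1.21), asp-13 from 498 to 54.2 CPM (-3.2) and asp-14 from 87.4 to 57.5 CPM (-0.60). The other knockdowns placed these genes differently. asp-1 stood at 855, 866 and 857 CPM under vha-16 RNAi and 748, 722 and 756 CPM under vha-19 RNAi, below control, while it stood above control under vha-6 RNAi (3.85 and 4.07 for vha-6 against each). asp-2 and asp-5 followed asp-1, with vha-6 RNAi above control (1.79 and 2.14) and differences of 4.7 and 4.52 from vha-16 RNAi. asp-13 was lower than control under vha-6 RNAi and lower still in the others (4.16 and 4.7). Only asp-4 (-0.97 and -1.03) and asp-17 (-1.82 and -1.62) were lower under vha-6 RNAi than under both other knockdowns.

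**Figure D2:**
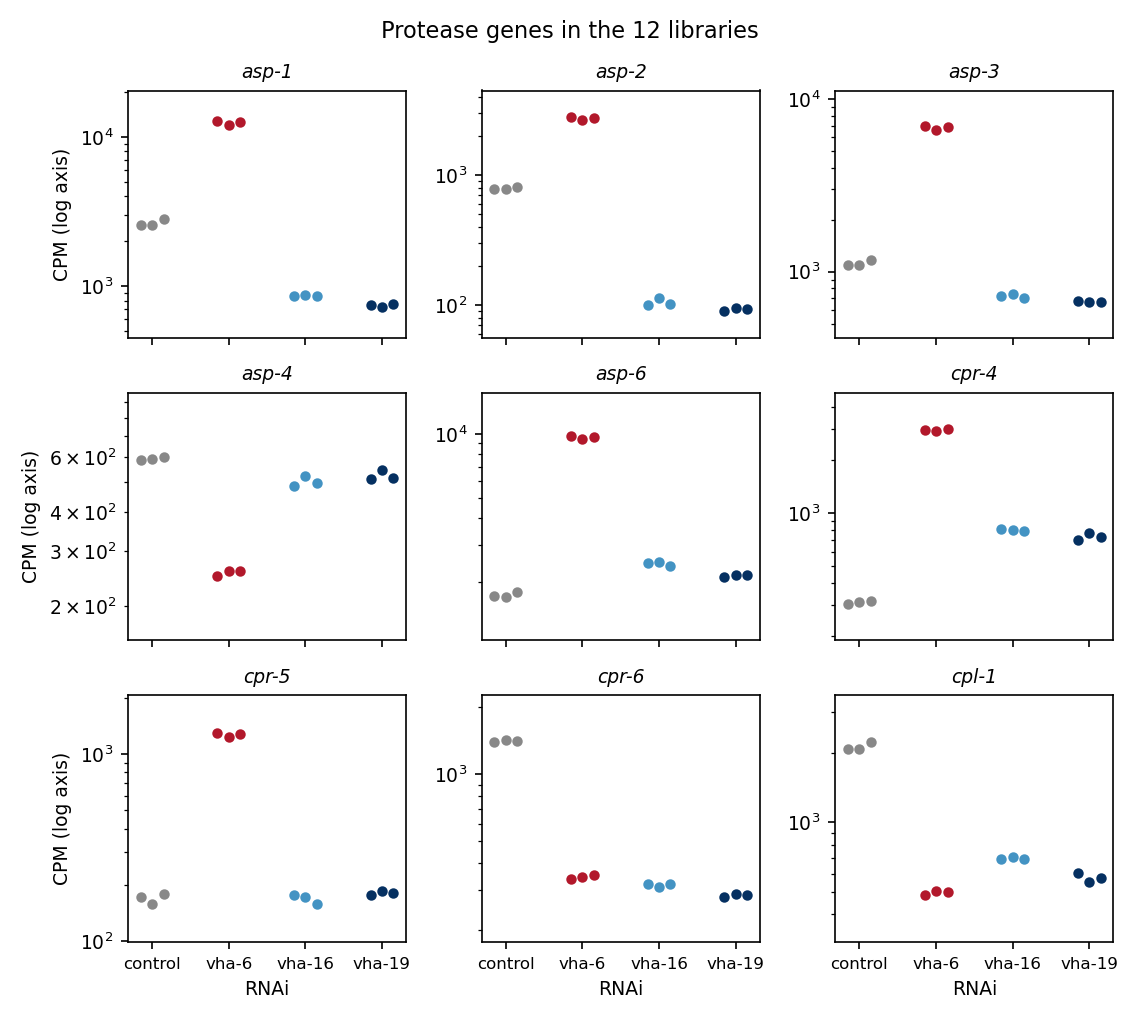
CPM (log axis) of 9 protease genes in each of the 12 libraries, by treatment, with 1 point per library. asp-1, asp-2, asp-3, asp-6, cpr-4 and cpr-5 are highest in the 3 vha-6 RNAi libraries, asp-4 is lowest there, and cpl-1 and cpr-6 are lower there than in control.

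Cysteine cathepsins split into genes that rose steeply and a few that fell. Of 15, 11 rose and 4 fell (median 1.25), and their summed level was 6426 to 6650.1 CPM in control and 7802 to 7985 CPM with vha-6 RNAi. The cathepsin B-like genes led the rises. cpr-4 stood at 305, 314 and 318 CPM in control and 2950.3, 2923 and 3008 CPM with vha-6 RNAi (3.25), and cpr-5 at 173, 158 and 179.8 and 1288, 1232 and 1279.9 CPM (2.89). cpr-3 rose from 8.39 to 343 CPM (5.35) and W07B8.4 from 0.295 to 16.5 CPM (5.78). Among the fallers, cpl-1, the cathepsin L that processes yolk and is needed by embryos, went from 2071, 2071 and 2217 to 485, 505 and 501 CPM (-2.09). The cathepsin Z gene cpz-1 (-1.93) and the gut cathepsin B gene cpr-6 (-2.03) fell as far. The groups of libraries do not overlap in any of these. cpr-5 was also higher than under vha-16 RNAi (2.9) and vha-19 RNAi (2.81), while cpr-3 was lower (-0.62 and -0.69), and cpr-6 differed little (0.12 and 0.28).

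Other lysosomal hydrolases moved by class. Of the 5 prolyl carboxypeptidase genes, which trim peptides at proline, pcp-2 (2.69), pcp-4 (2.25), pcp-1 (1.25) and pcp-3 (0.52) rose and pcp-5 (-0.85) fell. Of 10 genes for breaking down sphingolipids 7 rose and 2 fell (median 1.2, with 9 and 1 by library totals). The acid ceramidase gene asah-1 went from 79.5, 79.7 and 81.9 to 446, 424 and 446 CPM (2.45), while it stood at 10.5, 10.2 and 10.2 CPM under vha-16 RNAi. The glucocerebrosidase genes gba-1 (2.63), gba-2 (3.0) and gba-4 (0.83) rose, and gba-3 was at -0.18, turning to 0.27 with library totals. gba-4 showed the widest gap of these 10 to vha-16 RNAi, at 214 CPM with vha-6 RNAi against 1.73 CPM there and 1.77 CPM under vha-19 RNAi (6.95 and 6.91). The acid sphingomyelinase genes split, with asm-2 rising (1.56), asm-1 at -0.10 without passing the test, and asm-3 falling from 56.5 ± 1.06 to 1.01 ± 0.0488 CPM (-5.8).

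Among 8 acid lipase genes, whose products release fatty acids in the lysosome, lipl-1 (1.26), lipl-2 (1.02), lipl-4 (1.08) and lipl-6 (1.22) rose. The value of lipl-4 rests on few counts, 8, 7 and 4 in control and 23, 16 and 17 under vha-6 RNAi. lipl-3 (-2.91) and lipl-7 (-0.71) fell, and lipl-5 did not pass the test (0.06, at 540.1 and 561 CPM). lipl-5 was nonetheless far above vha-16 RNAi (2.97, at 71.7 CPM). lipl-8 passed the test on 0, 0 and 0 counts in control and 1, 1 and 2 counts under vha-6 RNAi, too few for a fold. Glycosidases moved less. gana-1 (1.44), an alpha-galactosidase, aman-1 (1.18), an alpha-mannosidase, and aagr-4 (1.16) rose by 2-fold or more, and the other 5 lay between -0.30 and 0.53. Of 4 acid nuclease genes 2 fell and 1 rose, nuc-1, which digests DNA of engulfed cells, from 132 to 33.2 CPM (-2.0) and rnst-2 (K10C9.3 in the table, an RNase T2) by -0.83, against crn-6 (0.66). With library totals 2 rose and 2 fell. Acid phosphatases went both ways, with 9 rises and 8 falls among 18 tested, shares near those of all genes, and with 12 rises and 4 falls by library totals. acp-6 went from 1027 to 258 CPM (-1.99), and the gut marker pho-1 rose (1.15).

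**Figure D3:**
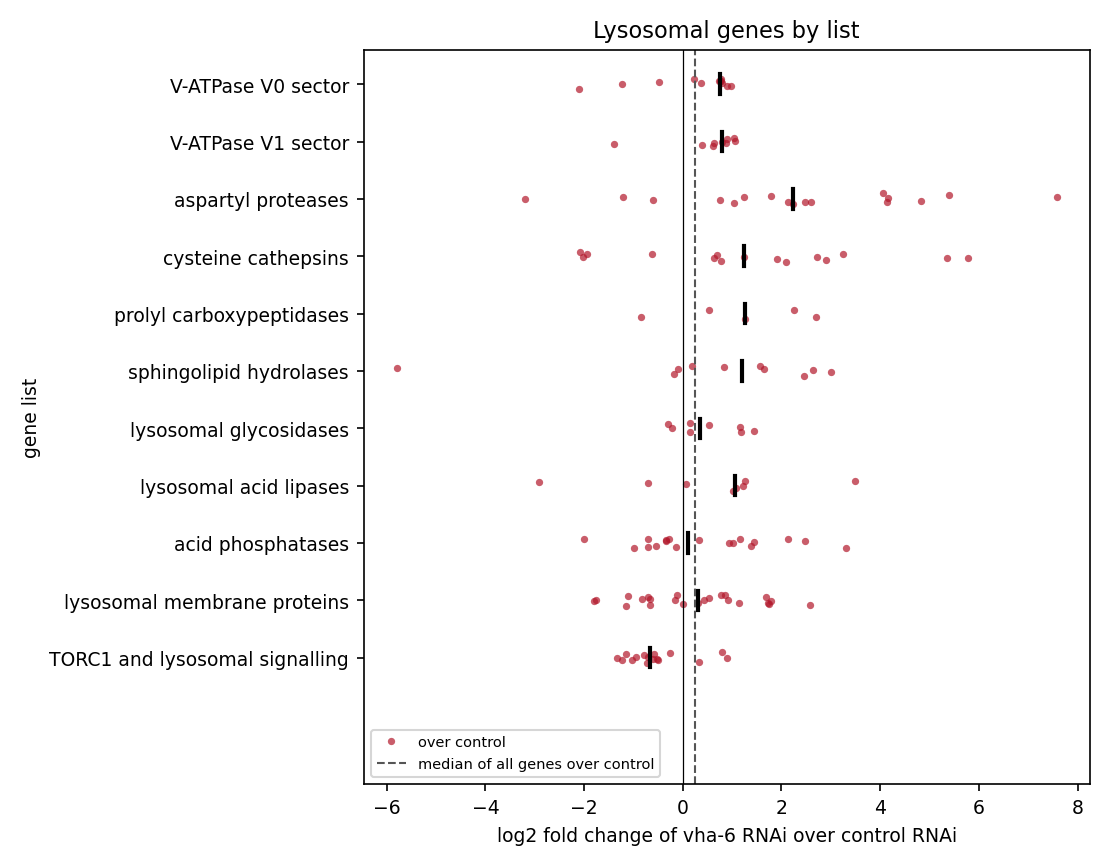
Log2 fold change of vha-6 RNAi over control for every tested gene of 11 lysosomal lists, 1 point per gene, with the list median as a bar and the median of all genes as a dashed line. Aspartyl proteases have the highest median at 2.23, and lysosomal signalling genes the lowest at -0.66.

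Genes for the lysosomal membrane and for lysosomal signalling did not follow the hydrolases. Of 23 membrane genes 12 rose and 9 fell (15 and 7 with library totals), shares near the 47.9% and 41.4% of all genes. Falls were led by cup-5, the mucolipin calcium channel, from 145, 149.8 and 143 to 41.8, 40.6 and 43 CPM (-1.8), by laat-1, an exporter of lysine and arginine (-1.75), and by ctns-1, the cystine exporter (-1.16). The heme importer hrg-1 (2.59), the Niemann-Pick C1 homologue ncr-2 (1.78) and scav-5 (1.75) rose, while the LAMP homologue lmp-1 stood at -0.15, but at 0.29 when scaled by library totals. Of 16 genes of TORC1, the growth kinase complex that is switched on at the lysosome, and its regulators, 13 fell (median -0.66). The falls include nprl-2 (-1.32) and nprl-3 (-1.15), of the complex that restrains TORC1, and the Rag GTPase gene ragc-1 (-1.23). With library totals the median is -0.21 and 10 genes fell. The 3 that rose were aak-2 (0.33), an AMP-activated kinase gene, mxl-3 (0.80), and hlh-30 (0.89), the homologue of the lysosomal master regulator TFEB, at 89.3, 81.9 and 90.9 CPM in control and 158, 164 and 163 CPM with vha-6 RNAi.

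Several transcription factor genes of the gut rose. elt-2 stood at 21.3, 20.1 and 20.0 CPM in control and 46.9, 47.5 and 44.8 CPM with vha-6 RNAi (1.18, SE 0.0537, adjusted p = 1.61e-20, edgeR), and its gut relatives elt-7 (0.53) and elt-4 (1.0) rose as well. Of 18 intestinal markers, elt-2 and elt-7 among them, 12 rose and 5 fell (median 0.87), from -2.71 to 2.23. elt-2 was lower than under vha-16 RNAi (-0.25) and vha-19 RNAi (-0.30). The zinc-finger gene pqm-1, a transcription factor that acts in insulin signalling, went from 22.7, 21.9 and 21.8 to 124, 122 and 122 CPM (2.47). cebp-1 (1.62) and dve-1 (1.08) rose by over 2-fold, zip-2, a bZIP factor of infection responses, by less (0.95), and the heat-shock factor gene hsf-1 fell (-1.44). The GATA gene end-1 of the early embryo fell, with 14, 11 and 16 counts in the control libraries and 1, 0 and 0 under vha-6 RNAi. The GATA gene end-3 fell too (-0.84), from 21, 26 and 18 counts to 16, 17 and 17.

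Autophagy genes mostly fell. Of 27, 19 fell and 7 rose (median -0.78, and -0.33 with 16 falls with library totals). sqst-1, the p62 receptor that is itself degraded in lysosomes, stood at 63.3, 59.1 and 68.4 CPM in control and 309, 299 and 309 CPM with vha-6 RNAi (2.27), but higher still in both other knockdowns (-2.06 and -1.8). lgg-1, the LC3 homologue (0.55), and atg-2 (0.74) also rose. epg-2 (-2.06), epg-8 (-1.15) and epg-4 (-1.12) fell most among members with a mean of 5 CPM or more. None of the 27 was higher than under vha-16 RNAi and 26 were lower, beside 31.2% and 31.6% of all genes.

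Heme genes rose together and strongly. The worm cannot make heme and takes it from food through the gut. hrg-2 (chromosome V, 12409415 to 12410513), a heme-responsive gene of the skin, stood at 1.11, 1.47 and 1.49 CPM in control and 241, 247 and 239 CPM with vha-6 RNAi (7.47). hrg-3, whose product carries heme from the gut to other tissues, went from 1.93, 1.83 and 1.31 to 243, 247 and 253 CPM (7.19). The importers hrg-1 and hrg-4 (2.26), the exporter mrp-5 (2.15, from 204 to 905 CPM) and hrg-9 (R186.1 in the table, 2.19) rose as well. Of 9 genes tested 7 rose, all by 2-fold or more, and hrg-5 and hrg-6 did not pass the test. hrg-3 was higher under vha-6 RNAi than under vha-16 RNAi (3.21) and vha-19 RNAi (3.2), and hrg-4 likewise (3.28 and 3.16). Genes for other metals went both ways, 10 up and 14 down of 27 (16 up and 10 down with library totals), beside 47.9% up and 41.4% down of all genes. The ferritin genes ftn-1 (1.86) and ftn-2 (0.79) rose, and the zinc-binding metallothionein gene mtl-2 (-2.71) and the ferroportin gene fpn-1.2 (-2.54) fell.

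Genes that move protons, ions and nutrients across the gut and other epithelia mostly rose. Of 15 sodium-proton exchangers and carbonic anhydrases 11 rose (median 0.68). pbo-4, the exchanger that releases protons from the hind gut, went from 24.9 to 82.4 CPM (1.73) and the carbonic anhydrase gene cah-4 from 156 to 412 CPM (1.4). The apical gut exchanger nhx-2 rose (0.86) and was higher than under vha-16 RNAi (1.16). best-1, a bestrophin channel gene, rose from 2.03 ± 0.409 to 51 ± 2.47 CPM (4.65), and 22 of 31 chloride channel and bestrophin genes rose, while the endolysosomal chloride transporter clh-6 (-0.84) and clh-5 (-1.29) fell. Among 19 amino acid and peptide transporter genes 13 rose and 4 fell, led by snf-5 (1.78) and, downward, slc-36.1 (Y43F4B.7 in the table, -1.45).

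Detoxification families held extreme rises beside falls. ugt-18, a glucuronosyltransferase gene, stood at 0.528, 0.295 and 0.596 CPM in control and 281, 272 and 273 CPM with vha-6 RNAi (9.17), and ugt-16 rose from 7.92 to 273 CPM (5.11). Of 63 tested in this family 33 rose and 17 fell (46 and 13 with library totals), with ugt-53 lowest among those with a mean of 5 CPM or more (-3.9). The omega-class glutathione transferase gene gsto-1 went from 7.56, 7.19 and 6.56 to 371, 385 and 379 CPM (5.73), gst-6 rose (2.82) and gst-10 fell (-3.87), in a family with 22 rises and 14 falls of 47 (18 and 17 with DESeq2's size factors). Of 71 cytochrome P450 genes 40 rose and 24 fell, from cyp-34A10 (3.82) to cyp-25A1 (-4.69). The counts of these 3 families stand beside 47.9% rising and 41.4% falling over all genes tested, so they set no family apart by themselves. The superoxide dismutase gene sod-4 rose (1.62) and msra-1, a repair enzyme for oxidised methionine, fell (-2.03).

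Most C-type lectin genes rose, while lysozyme and saposin-like genes split. C-type lectins, secreted sugar-binding proteins, had 123 rises and 30 falls of 171 tested (median 1.51). clec-63 made a gain among the 10 largest in CPM, from 1156, 1132 and 1210.2 to 6928, 6369 and 6619 CPM (2.51). clec-17 rose from 0.807 to 58.9 CPM (6.18), while clec-87 fell from 1051 to 48.6 CPM (-4.43) and clec-190 from 52.8 to 0.625 CPM (-6.39). Lysozyme genes split, with lys-2 (1.98), lys-4 (1.65) and lys-8 (1.16) up and ilys-5 down from 1146, 1134 and 1149 to 126, 117 and 118 CPM (-3.25). These 3 risers, of which lys-8 was named after its value was seen, were far above vha-16 RNAi (3.91, 5.95 and 4.04). Under vha-16 RNAi their transcripts stood below control. The same was seen in the saposin-like genes spp-2, from 24.1 to 388 CPM (4.01, and 4.55 against vha-16 RNAi), and spp-8 (2.08 and 3.65). spp-8 too was named after its value was seen. spp-17 fell (-4.64).

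The intracellular pathogen response and antimicrobial peptide genes rose in part and mostly stood lower than in the other knockdowns, while infection response genes went both ways. Of 34 genes of the intracellular pathogen response, which answers microsporidia, viruses and blocked protein turnover, 27 rose (median 1.4), led by pals-6 (C17H1.7 in the table, 3.48), pals-32 (C31B8.4, 3.42) and skr-5 (3.33). Yet 23 of the 34 were lower than under vha-16 RNAi and 22 lower than under vha-19 RNAi, beside 31.6% and 29.5% of all genes. Caenacin and other antimicrobial peptide genes rose in 10 of 18 and fell in 2 (12 and 0 with library totals), beside 47.9% and 41.4% of all genes. Among the risers nlp-34 was at 2.23 and nlp-29 at 1.34. Of the 18, 17 were lower than under vha-16 RNAi, where 31.6% of all genes were lower. irg-7 (drd-2 in the table) went from 685, 668 and 652 to 2484, 2509.7 and 2499 CPM (1.9) and dod-22 from 2.34 to 59.8 CPM (4.67), whereas dod-23 fell (-3.8). irg-7 (0.94 and 0.74) and dod-22 (3.15 and 3.95) were higher than under vha-16 and vha-19 RNAi. Of the 18 infection response genes 12 rose and 6 fell. Against vha-16 RNAi 9 were higher and 7 lower, beside 31.2% and 31.6% of all genes. The tetraspanin genes tsp-2 and tsp-1 rose from below 1 CPM to 81.1 ± 5.47 and 63 ± 4.19 CPM (6.54 and 6.11), and the small GTPase gene arf-1.1 (current name warf-1) from 1.82 to 13 CPM. Under vha-16 RNAi arf-1.1 reached 783 CPM (-5.92 for vha-6 against vha-16).

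Lipid metabolism showed opposite extremes. ech-9 (chromosome IV, 10233310 to 10235329), a predicted enoyl-CoA hydratase gene of fatty acid oxidation, stood at 1.17, 1.77 and 1.55 CPM in control and 548, 480.1 and 502 CPM with vha-6 RNAi (8.41), and at 4.5 and 3.55 CPM under vha-16 and vha-19 RNAi. The fasting-induced acyl-CoA synthetase gene acs-2 rose (4.63), from 4.88 to 121 CPM, as did the peroxisomal oxidase gene acox-1.5 (acox-5 in the table, 3.96). Delta-9 desaturase genes, which make oleate and palmitoleate, fell unequally. fat-7 went from 163, 160.3 and 164 to 8.06, 8.68 and 8.47 CPM (-4.27), fat-5 from 91.3 to 26.9 CPM (-1.76) and fat-6 by -0.28 (but 0.16 with library totals). The elongase genes elo-4 (2.59), elo-7 (2.55) and elo-8 (2.41) rose. The fat droplet gene plin-1 fell (-1.61), and so did lbp-9 (-1.61), of a family that ferries fatty acids, while far-7 rose (3.06). The nuclear receptor gene nhr-31, which is needed for tubule formation in the excretory cell and for its V-ATPase genes, rose from 69.1, 73.3 and 70.6 to 385, 370.2 and 374 CPM (2.41).

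Propionate can be broken down by a vitamin B12-dependent route or by a shunt, and the shunt genes fell. acdh-1, the first enzyme of the shunt, went from 1461, 1542 and 1460.0 to 45.9, 54.8 and 52 CPM (-4.87). ech-6 (-2.46), hach-1 (F09F7.4 in the table, -2.58) and hphd-1 (Y38F1A.6, -2.48) fell by 4-fold or more, and the shunt's nuclear receptor gene nhr-68 fell too (-1.23). The B12-dependent genes moved little, with pcca-1 at 0.12 (though -0.01 with DESeq2's size factors), pccb-1 at 0.05 and mce-1 at -0.07, neither past the test, and mmcm-1 at -0.28 (though 0.16 with library totals). The methionine cycle fell in 12 of 16 genes (median -1.08, 10 with library totals). sams-1, which makes the methyl donor S-adenosylmethionine, went from 827, 863 and 865 to 218, 221 and 222 CPM (-1.95), ahcy-1 from 2843 to 878 CPM (-1.7) and mel-32, which feeds the cycle from serine, fell (-1.8). nhr-114, a receptor tied to this cycle in the gut, fell as well (-2.48). Among genes of central carbon metabolism the glyoxylate gene icl-1 rose (1.83) and the glycogen phosphorylase gene pygl-1 (T22F3.3) fell (-1.89).

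Proteasome and mitochondrial ribosomal protein genes fell. All 31 proteasome genes fell, between -0.86 and -1.75, and all 31 were lower than in either other knockdown as well. Of all genes 31.6% were lower than under vha-16 RNAi and 29.5% lower than under vha-19 RNAi. pas-5, of the catalytic core, went from 271, 261 and 263 to 80.2, 78.2 and 76.8 CPM (-1.75). Mitochondrial ribosomal protein genes fell in 69 of 70 (median -0.98; 63 fell and 1 rose with library totals). All 11 protein-coding genes of the mitochondrial genome that were tested fell (8 with library totals, median -0.91), the cytochrome b gene ctb-1 from 2342, 2419.7 and 2352 to 592, 589 and 584 CPM (-2.01). Of the 2 mitochondrial rRNA genes tested, named after their values were seen, MTCE.7 fell (-0.22; 0.22 with library totals) and MTCE.33 rose (0.70). Cytosolic chaperone genes fell, hsp-1 from 5618 to 2581 CPM (-1.12), hsp-110 (-1.36) and sip-1 (-1.75), while hsp-17, of the small heat-shock family, rose (1.67). In the endoplasmic reticulum hsp-4, the stress-induced BiP, rose (0.65) but was lower than under vha-16 RNAi (-0.84).

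In several pairs of similar genes the 2 members moved in opposite directions. The succinate dehydrogenase gene sdha-1 rose (0.45) while sdha-2 fell (-1.75). The ATP synthase gene asb-2 rose (0.41) while asb-1, its germline counterpart, fell (-1.55). The ribosomal protein gene rpl-11.2 rose (0.50) while rpl-11.1 fell (-1.25), and rpl-25.1 rose (0.60) while rpl-25.2 fell (-0.94). These 4 pairs kept opposite directions with library totals and with DESeq2's size factors. The glyceraldehyde phosphate dehydrogenase genes gpd-1 (-3.12) and gpd-4 (-2.96) both fell, but they are near-identical copies whose reads are hard to assign.

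The yolk and oocyte lists had the largest median changes of the 75 lists examined. Yolk protein genes, made in the adult gut, fell in 6 of 6, vit-2 from 33146, 32882 and 32758 to 5187, 5783 and 5384 CPM (-2.6) and vit-6 from 39948, 39152 and 39119 to 3317, 3705 and 3439 CPM (-3.5). These falls were the largest losses in CPM of any genes. Reads that align to several places were not counted to genes, so values of the near-identical vit-3, vit-4 and vit-5 carry that doubt. All 29 oocyte and eggshell genes fell (median -3.19), as did all 29 replication and mitosis genes (median -2.11), all 21 meiosis genes (median -1.34, 20 with library totals) and all 16 germline stem cell and P granule genes (median -1.36, 14 with library totals). nos-2, a maternal RNA of oocytes and embryos, went from 134, 132 and 140.1 to 3.92, 4.89 and 5.37 CPM (-4.83) and the mitotic cyclin gene cyb-3 from 970.1 to 96.5 CPM (-3.33). The stem cell genes moved least of that list, with fbf-1 at -0.27 and fbf-2 at -0.42, both of which turn positive with library totals (0.17 and 0.02). Sperm genes went the other way, with 33 of 37 spermatogenesis genes rising (median 2.0), spe-42 from 1.88, 2.06 and 1.79 to 15.8, 14.6 and 13.8 CPM (2.94), and 40 of 42 major sperm protein and related genes, many of them near-identical copies.

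Cuticle and moulting genes mostly rose. Of 21 body-shape genes, nearly all of them collagens, 19 rose, all by 2-fold or more (median 2.69). The collagen gene rol-6 went from 6.21, 4.95 and 6.14 to 86.6, 84.3 and 82.1 CPM (3.87). bli-1 (3.58) and bli-2 (3.75), the struts of the adult cuticle, rose, while the adult collagen col-19 stood at 1339, 1455 and 1488 CPM in control and 1262, 1209 and 1232 CPM with vha-6 RNAi (-0.21, turning to 0.24 with library totals). The Hedgehog-related gene grd-6 rose (4.35), as did lin-42, a period homologue that cycles with the moults, from 13.3, 15.3 and 13.7 to 103, 93.3 and 95 CPM (2.79). The late timing gene lin-29 rose (1.11) and lin-41, which is also an oocyte gene, fell (-2.86). Treatment and developmental stage at collection cannot be told apart in this comparison, because the libraries of a treatment share both. The groups did not overlap for any of the 29 oocyte genes, but neither did they for 89.6% of all genes tested. Against vha-16 RNAi the same lists lay much closer, with medians of 0.08 for oocyte genes, 0.11 for spermatogenesis and 0.06 for body-shape genes, beside 3.76 for aspartyl proteases. Against vha-19 RNAi the values were -0.01, 0.04, -0.01 and 3.98.

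**Figure D4:**
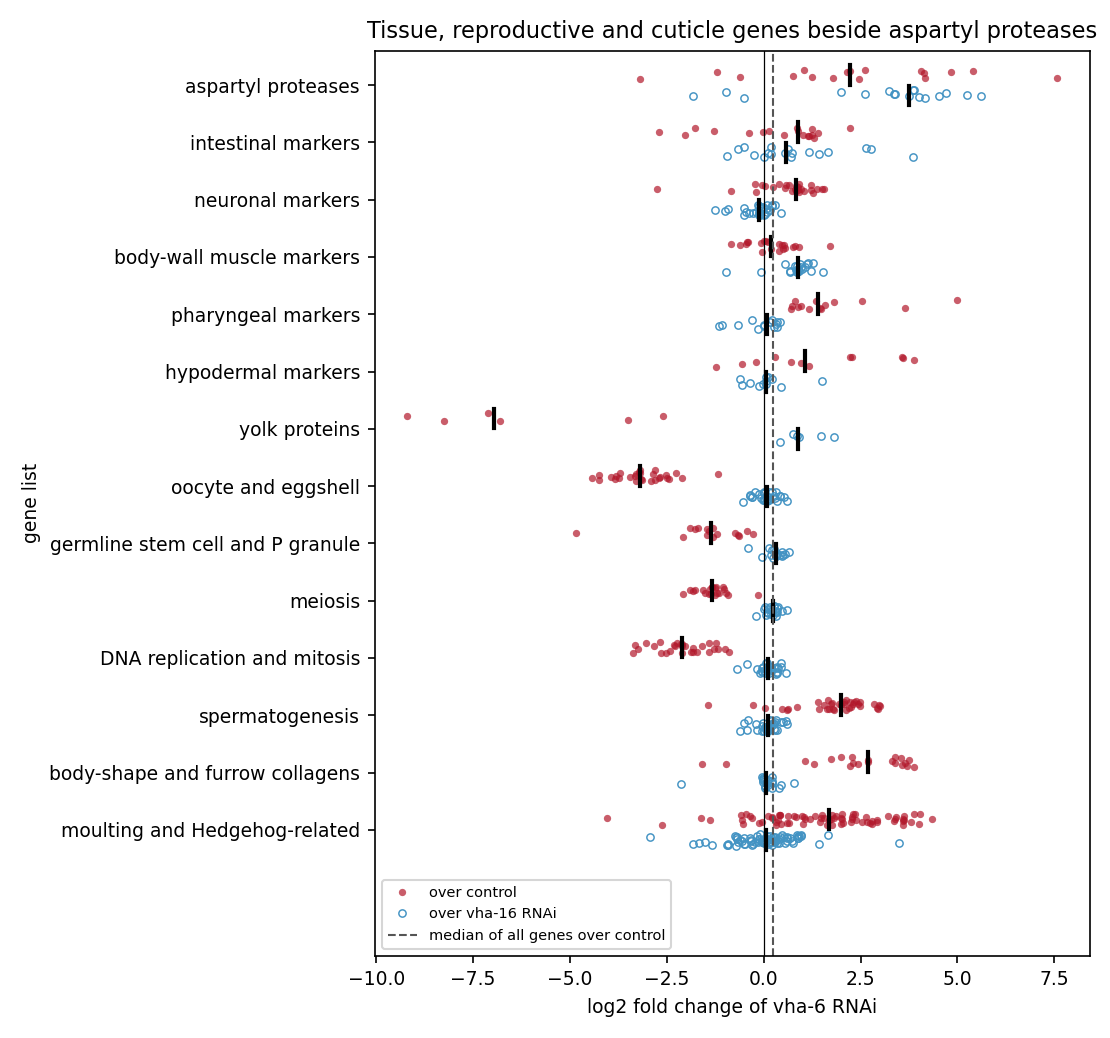
Log2 fold change of vha-6 RNAi over control (filled) and over vha-16 RNAi (open) for every tested gene of 14 lists of tissues, reproduction and cuticle, with list medians as bars. Oocyte genes sit near -3.19 against control and near 0.08 against vha-16 RNAi, while aspartyl proteases sit at 2.23 and 3.76.

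Some genes set vha-6 RNAi apart from control and from both other knockdowns at once. clec-9 (chromosome V, 16705044 to 16706649) had 0, 2 and 0 counts in the control libraries and stood at 113, 110.1 and 111 CPM with vha-6 RNAi, against 0.349 and 0.211 CPM under vha-16 and vha-19 RNAi. clec-45 (6.64 and 6.45 against these), clec-70 (6.07 against control, 6.78 and 7.16), ech-9 (6.82 and 7.16), comt-2 (6.01, 7.44 and 8.26), the chitinase-like gene chil-9 (12.1 ± 0.933 CPM from 0.0792 ± 0.0912), F58E6.8 (29.3 ± 3.28 CPM from 0.0793 ± 0.0911) and Y54G2A.37 (6.31) shared that pattern. Downward changes of this kind were smaller on the log2 scale. pfn-1, a profilin gene of the actin skeleton, stood at 722, 765 and 773 CPM in control, 151, 150.2 and 157 CPM with vha-6 RNAi, 668, 679 and 623 CPM under vha-16 RNAi and 603, 629.8 and 596 CPM under vha-19 RNAi (-2.3). crn-4, a nuclease gene of apoptosis, fell (-2.64, -2.5 and -2.39), as did igcm-4 (-2.64), K08D8.3 (-2.67) and W06D11.1 (-3.24). clec-5, set-12 and C06E1.1 also fell against control (-1.78, -1.88 and -1.86), while vha-16 RNAi stood above control for each. clec-5 was at 38.6 CPM in control, 11.2 CPM with vha-6 RNAi and 268 CPM under vha-16 RNAi.

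**Figure D5:**
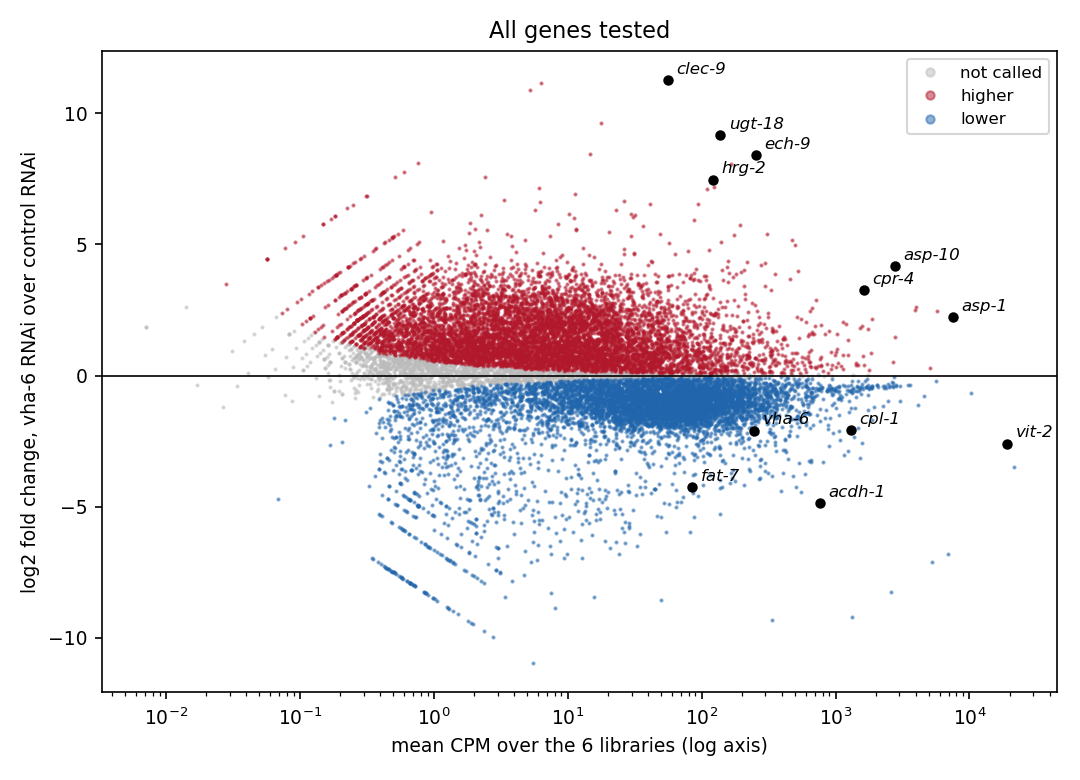
Mean CPM over the 6 libraries (log axis) against the log2 fold change of vha-6 RNAi over control for the 17043 genes tested, with called genes in colour and 12 named genes labelled. Rises are more frequent among genes at low levels and falls among genes at high levels.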

How the data were processed

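Whole-worm polyA RNA was sequenced on a BGISEQ-500 for 12 libraries, 3 for each of 4 RNAi treatments. The values are raw read counts per gene, deposited by the authors in 1 table, and groups and replicate numbers were taken from the labels. Per the submitters' processing notes STAR 2.73a, edgeR 3.24.3 and WBcel235/ce11 were used. For the counting program, the strand setting and the filter that left 18467 genes, nothing is given in the sources used here, so overlapping and antisense genes are uncertain. The table's 3 entries for reads not assigned to a gene were left out. Reads with several alignments, 1 of these entries, made up 15.1% to 15.4% of reads in control and 9.45% to 9.54% under vha-6 RNAi, so genes with near-identical copies are uncertain.

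Counts were fitted for all 12 libraries, by treatment, with edgeR 4.0.16 in R 4.3.3 (filterByExpr, TMM factors, quasi-likelihood F-test, Benjamini-Hochberg adjustment over 17043 genes). The common biological coefficient of variation was 2.99%. TMM factors were 0.763 to 0.775 in control and 1.05 under vha-6 RNAi, and yolk genes took 7.91% to 8.16% and 0.911% to 1.02% of gene counts. The standard error (SE) is the log2 fold change divided by the square root of F. On simulated counts of 15819 genes for the comparison with control, 31 of 50 changes of 1.2-fold, 40 of 50 of 1.5-fold, 48 of 50 of 2-fold and 50 of 50 of 4-fold were called, with 10 false calls among 179. Only 200 genes were changed in the simulation, while most genes were called in the data. It therefore does not test errors that come from the scaling. Gene positions are those of Ensembl's WBcel235 annotation, and current names come from the same source.

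The compared groups and the 75 gene lists were chosen with earlier results of these data known. Named genes are all V-ATPase genes, up to 3 called members of a list in each direction with non-overlapping libraries and a mean of 5 CPM or more (any member of a list of 12 or fewer), the 10 largest gains, losses, rises and falls, and 8 genes in each direction apart from control, vha-16 RNAi and vha-19 RNAi. The genes ahcy-1, asp-17, cpr-5, fat-6, fbf-1, fbf-2, ftn-2, lmp-1, lys-8, MTCE.7, MTCE.33, nhx-2, spp-8 and zip-2 were named after their values were seen. Alternatives were other scalings, other filters, a replicate block, a fit of the 6 compared libraries only, DESeq2 1.42.0 and leaving out each library.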

Additional observations from a re-analysis of the deposited data

Results flagged for a closer look

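Reads that fell in no annotated gene, which no comparison above uses, made up a mean of 0.995% of reads in the vha-6 RNAi libraries, above each control library. Nothing was tested on them.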

How the results depend on the processing

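The vha-6 transcript fell under every alternative run, by log2 fold changes from -1.65 (library totals) to -2.23 (DESeq2 size factors), and from -2.14 to -2.06 with a library left out. The counts of genes called at 2-fold or more moved past 1.5 times in 7 cases. With library totals 2128 genes fell by 2-fold or more against control, where TMM gave 3872. With genes under a mean of 5 CPM removed, so that 11561 were tested, 3494 rose and 2237 fell against control, 688 and 911 against vha-16 RNAi, and 603 and 792 against vha-19 RNAi. The share of calls that were rises was 53.6% with TMM, 63.9% with library totals and 50.6% with DESeq2 size factors, and 518 genes were called in opposite directions by TMM and library totals. Leaving out a library gave 7999 to 8385 rises and 7019 to 7076 falls against control. Directions of some genes turned, all with small changes. With library totals asm-1 gave 0.35, col-19 0.24, fat-6 0.16, fbf-1 0.17, fbf-2 0.0239, gba-3 0.27, lmp-1 0.29, mce-1 0.38, mmcm-1 0.16 and MTCE.7 0.22. With the 5 CPM filter gba-3 gave 0.0202, lmp-1 0.0451 and mce-1 0.13, and with DESeq2 size factors lipl-5 gave -0.081, pcca-1 -0.0122 and pccb-1 -0.0817, as did DESeq2's Wald test for the last 2. The replicate block left 8156 rises and 7060 falls against control, where 8169 and 7059 were called without it, and the vha-6 transcript at -2.1. Replicate numbers were not treated as pairs in the main fit. Deviations of same-numbered control and vha-6 libraries correlated at 0.00128, -0.0175 and -0.00802. With so little spread between replicates, these values cannot show whether same-numbered libraries were grown or processed together. Counts near 0 limit genes below about 1 CPM, whose median SE was 0.413.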

Other observations

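Neuropeptide genes rose as families. All 31 FMRFamide-like peptide genes tested rose (median 1.17), as did 64 of 71 neuropeptide-like protein genes (median 1.23), beside a median of 0.24 over all genes. Against vha-16 RNAi 26 of the 31 were lower (median -0.28), beside 31.6% of all genes. Nuclear hormone receptor genes, a large family of ligand-regulated factors in the worm, rose in 148 of 209 and fell in 28, with nhr-2, a receptor of the early embryo, going from 32.5 to 1.6 CPM (-4.33). Of 30 genes of germline Argonautes and RNA interference 23 fell and 6 rose, and the risers include alg-3 (2.5), alg-4 (2.71) and wago-10 (3.09), of which alg-3 and alg-4 act in the male germline. Skp1-related genes, adaptors of ubiquitin ligases, fell in 15 of 20 (14 with library totals). Rab and Arf GTPase genes, which steer vesicles, fell in 20 of 31 and rose in 8 (17 and 11 with library totals).

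The share of genes that rose differed between chromosomes. It was 38.55% on chromosome I and 37.7% on III, 46.49% on II and 50.72% on IV, and 56.3% on V and 55.04% on X. Genes with a mean of 100 to 1000 CPM rose in 21.37% and fell in 75.69%, while those of 1 to 10 CPM rose in 67.54% and fell in 20.04%. No count was found in the 3 control libraries for 102 genes that had counts under vha-6 RNAi, 10 of them with 30 or more pooled counts there. The claudin-like genes T27C5.8 (current name clc-21) and F49H6.13 (clc-12) had 890 and 742 pooled counts, at least 213.9-fold and 178.33-fold higher than a floor of 3 pooled counts, and both names were read after their values were seen. In the other direction 106 genes had no count under vha-6 RNAi, 71 of them with 30 or more in control. sdz-30 had 565 pooled control counts, at least 261.21-fold above a floor of 3 under vha-6 RNAi.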
